A study of Drosophila melanogaster with 34 samples.

Results

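Binding sites of the zinc finger protein Crooked legs (Crol) in larval brains and imaginal discs were compared between the wild type (WT) and a crol knockout (crol-KO). All ChIP-seq peaks of both lists that lay on X, 2L, 2R, 3L, 3R or 4 were used, which gave 10139 WT and 9883 crol-KO peaks, or 20022 of the 47852 peaks in the 5 lists analysed from the series. A peak of one list was matched with every peak of the other that it overlapped by at least 1 bp, and matched peaks were then compared in summit position, width, number and reads at the summit. The series holds 34 samples, of which 4 belong to this comparison.

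Both groups were larvae of the third instar, with chromatin from the brains and imaginal discs of several larvae per sample, precipitated with the CrolN antibody, raised against residues 1 to 188 of Crol. The crol-KO allele was made by CRISPR/Cas9 with homologous recombination, its homozygotes die mostly as pharate adults, and the labels give no further allele for either group. As a model of Crol loss the knockout is limited by Crol protein that is still present in the larvae. The study proposes that this protein was supplied by the mother. Each group had 2 replicate libraries, and the authors pooled their reads before calling peaks. Each genotype therefore gave 1 list, no value below has a replicate check, and the differences between genotypes carry no test here. The study itself tested differential binding and reported loci with significantly decreased Crol in crol-KO. Those loci are not compared with the peaks below. Intervals are exact Clopper-Pearson 95% intervals for shares and binomial order-statistic intervals for medians, and both cover counting error only, with peaks taken as independent. The genotype labels were not checked here, since the place of the crol deletion on dm3 was not looked up.

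Crol is a C2H2 zinc finger protein, that is, one of a class of factors whose tandem fingers each contact a few bases of DNA, and it binds sequences rich in runs of G. In flies it is known for the response to the moulting hormone ecdysone and for leg formation. It binds Polycomb response elements, DNA elements to which Polycomb group repressors are recruited, and it interacts with Combgap (Cg), a zinc finger protein of the same elements. Cg was profiled in the same tissues of both genotypes, and its WT and crol-KO lists served as a scale for how far 2 lists of the same protein differ. It is not a neutral scale, since the study reports that Cg binding also fell in crol-KO at a subset of sites with decreased Crol.

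Reads at a summit are given as pileup, the number of extended reads that cover the summit. The lists do not print it, but it follows from the authors' fold enrichment and p-value. A whole number came out, within 0.1 read, for 100% of the Crol peaks. The median pileup was 62 reads in WT and 74 in crol-KO, and the genome-wide background was 10.6 and 12.2 reads, which corresponds to 4.24 and 4.89 M reads. The crol-KO list was thus deeper by a factor of 1.15, against 1.04 for Cg. The ratio of 2 pileups was divided by this factor and is called the depth-scaled ratio.

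At the level of peaks, 18.6% of WT Crol peaks (1889 of 10139, 95% interval 17.9 to 19.4) had no crol-KO overlap and are called missing. Of the crol-KO Crol peaks, 17.7% (1752 of 9883, 17.0 to 18.5) had no WT overlap and are called new. At the level of bases, 4.97 Mb lay under Crol peaks of both genotypes, which is 76.7% of the 6.49 Mb covered in WT and 75.5% of the 6.58 Mb covered in crol-KO. For Cg the shared bases were 85.7% of those in WT and 77.3% of those in crol-KO. Exactly 1 WT peak met exactly 1 crol-KO peak in 7604 cases, and these one-to-one pairs carry the comparisons of summit, width and pileup. Missing and new peaks were small. Missing WT peaks had a median pileup of 44 reads and a median width of 419 bp, against 68 reads and 555 bp for WT peaks with an overlap. New crol-KO peaks had medians of 47 reads and 392 bp, against 83 reads and 592 bp.

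The summit of a Crol peak was found at nearly the same place in both genotypes. Over the 7604 pairs the median distance between the WT and the crol-KO summit was 39 bp (interval 37 to 40), with quartiles of 17 and 79 bp. It was at most 50 bp in 59.7% of pairs (58.6 to 60.8), at most 100 bp in 81.7% and at most 150 bp in 89.7%. The signed displacement had a median of 0 bp, so the summits moved to neither side of the arm. In the 7443 Cg pairs the median distance was 35 bp (34 to 36), and 63.7% (62.6 to 64.8) lay within 50 bp. Summits of different proteins in the same genotype were about as close, since WT Crol and WT Cg summits in one-to-one pairs lay a median of 41 bp apart (40 to 42).

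**Figure D1:**
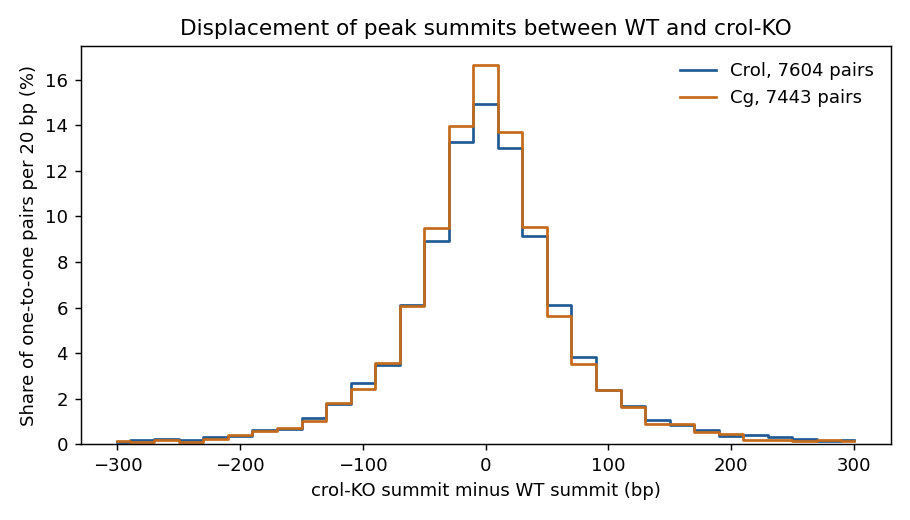
Displacement of the peak summit from WT to crol-KO in one-to-one pairs of Crol (blue, 7604 pairs) and Cg (orange, 7443 pairs), in bp, as the share of pairs in each 20 bp step; displacements beyond 310 bp are not drawn. Both curves are centred on 0, and the Cg curve is slightly higher at its centre.

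The median summit distance was shorter in stronger peaks, by less for Crol than for Cg. From the decile of pairs with the lowest WT fold enrichment to the decile with the highest, the median distance went from 57 to 33 bp for Crol and from 57.5 to 25 bp for Cg. In the highest decile 62.7% of Crol pairs (59.1 to 66.1) and 78.8% of Cg pairs (75.7 to 81.7) lay within 50 bp, with intervals that cover counting error only. The tail of the Crol distances did not shorten with strength: the distance exceeded 500 bp in 1.45% of the lowest decile and 4.99% of the highest, and the value exceeded by 10% of pairs was 184 and 197 bp. Large displacements were found in wide peaks, which can hold several local maxima. The distance exceeded 500 bp in 200 Crol pairs, 2.63% of all, and in 73 of the 270 pairs whose WT peak was wider than 1500 bp. For Cg it exceeded 500 bp in 31 of the 179 pairs of that width.

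The 5 largest displacements lay inside broad peaks that both genotypes shared. The largest was on 3R, in a WT peak from 10563517 to 10567628 on the dm3 assembly, counted from 1 as all positions below. Its summit was at 10563881 in WT and at 10566588 in crol-KO, 2707 bp away, while the peak was 4112 bp wide in WT and 4031 bp in crol-KO. The summit pileup was 209 reads in WT and 243 in crol-KO, a depth-scaled ratio of 1.01 (exact binomial interval 0.835 to 1.22). A different maximum of one broad domain was therefore the highest in each genotype, at about equal height. The next were on 3R from 9625596 to 9628919 with a displacement of 2186 bp, on 3R from 16459428 to 16461968 with 1861 bp, on X from 7985969 to 7988367 with 1856 bp, and on 2R from 12065983 to 12067990 with 1522 bp. Of these the X site had the lowest depth-scaled ratio, 0.725 (0.559 to 0.939), and the other ratios lay between 0.858 and 1.16. All 5 sites overlapped Cg peaks in both genotypes, as most Crol pairs did. Of pairs with a ratio of 0.5 to 2, 87.3% overlapped a WT and 90.7% a crol-KO Cg peak.

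Crol peaks were slightly wider in crol-KO. The median difference in width, crol-KO minus WT, was 38 bp (36 to 42), with quartiles of -46 and 118 bp, from medians of 548 bp in WT and 583 bp in crol-KO. Among pairs with unequal widths 63.6% (62.5 to 64.6) were wider in crol-KO. Cg behaved likewise, with a median difference of 33 bp (30 to 36) and 64.2% of pairs wider, and the crol-KO list was the deeper one for both proteins. The part of depth in the widening was not tested. When pairs were sorted by their mean width, so that neither genotype set the order, the median Crol difference stayed between 22 and 47 bp in all 6 classes. The Cg difference went from 11 bp in pairs of up to 400 bp to 64 bp (39 to 84) in pairs over 1500 bp, while that of Crol in the widest class was 22 bp (7 to 39).

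**Figure D2:**
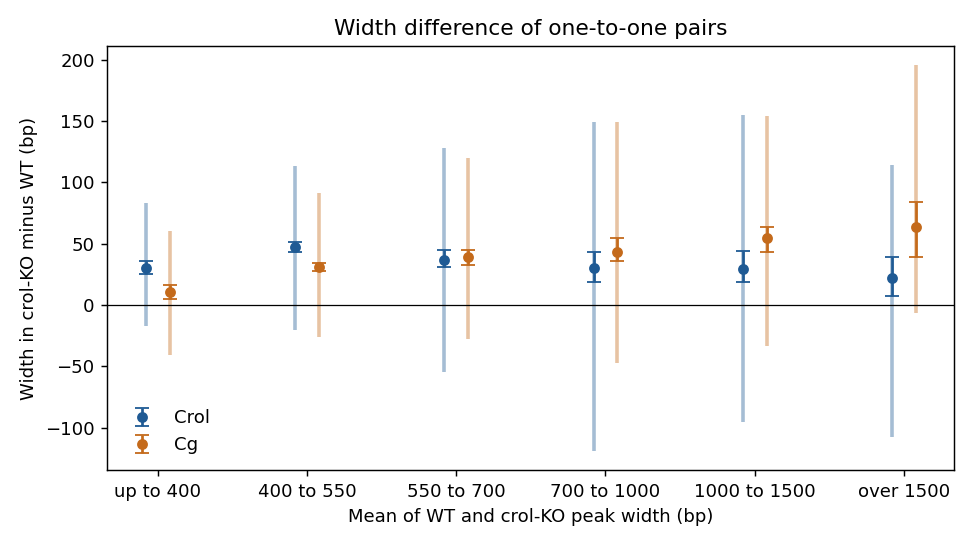
Difference in peak width between crol-KO and WT, in bp, for one-to-one pairs of Crol (blue) and Cg (orange) in 6 classes of mean width; points are medians, capped bars 95% intervals of the median and pale bars quartiles. All medians lie above 0, and in the widest class the Crol median is 22 bp and the Cg median 64 bp.

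The spread of the width differences, rather than their centre, set Crol apart in the losing direction. A crol-KO peak was no wider than 50% of its WT peak in 165 Crol pairs and in 50 Cg pairs. A width of at least 2 times that of WT was found in 168 Crol pairs and 120 Cg pairs. The largest loss was on 2L, where a WT peak from 695971 to 698228, 2258 bp wide with a pileup of 59 reads, met a crol-KO peak of 419 bp with 45 reads. There the Cg peak of WT had no crol-KO counterpart in the span. The next losses were on 3R from 17747007 to 17749056, from 2050 to 443 bp with 137 reads in WT and 71 in crol-KO, and on 2L from 19014379 to 19016076, from 1698 to 308 bp with 47 and 36 reads. The largest gain was also on 2L, where a WT peak of 354 bp at 21221113 to 21221466 met one of 1933 bp in crol-KO, with 54 and 115 reads and a depth-scaled ratio of 1.85 (1.33 to 2.60). It was followed by a 3L peak at 3192392 to 3194470, which went from 2079 to 3549 bp with 241 and 405 reads, and an X peak at 19768909 to 19769445, which went from 537 to 1940 bp with 28 and 53 reads. All 3 gains overlapped Cg peaks in both genotypes, as most Crol pairs did (87.3% in WT and 90.7% in crol-KO at depth-scaled ratios of 0.5 to 2).

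Few peaks were cut up or fused. A WT peak overlapped more than 1 crol-KO peak, and is called split, in 141 cases, which is 1.39% (1.17 to 1.64). Of these 136 met 2 crol-KO peaks, 4 met 3 and 1 met 4. In the opposite direction 256 crol-KO peaks, 2.59% (2.29 to 2.92), covered more than 1 WT peak, and 522 WT peaks lay under them. Fusion was thus more frequent than splitting, and the same held for Cg, with 89 split WT peaks and 234 crol-KO peaks over more than 1 WT peak. The median gap was 222 bp between the pieces of a split peak and 209.5 bp between WT peaks under the same crol-KO peak, so most of these events turned on gaps shorter than the 300 bp of an extended read. Split peaks were wide, with a median of 1536 bp in WT.

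The peak that split into most pieces had a high summit in WT. It lay on 3L from 10731259 to 10734636, was 3378 bp wide and had 307 reads at its summit and a fold enrichment of 11.2. In crol-KO it was replaced by 4 peaks of 396, 781, 860 and 519 bp, whose summits held 60, 160, 123 and 47 reads. The highest of the 4 thus had 160 reads in a library that was 1.15 times deeper, against 307 in WT. A 2R peak from 8844521 to 8848034, 3514 bp wide with 239 reads, split into 3 peaks with 110, 116 and 138 reads. A 3R peak from 25080828 to 25084303, 3476 bp wide with 147 reads, split into 3 with 117, 67 and 59 reads. The 3 crol-KO peaks over most WT peaks were all on X. They lay at 11699091 to 11701902, at 16225819 to 16229963 and at 11709654 to 11713167, each over 3 WT peaks, with 186, 200 and 159 reads in crol-KO. The highest WT peak beneath each had 117, 123 and 86 reads. In each of these 6 cases the genotype with the single broad peak also had the higher depth-scaled summit. Ties in the number of pieces were broken by the fold enrichment of the broad peak, so the choice favoured this outcome. It was not examined over all split or covering peaks.

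Scaled by depth, more summits were strongly lowered than raised in crol-KO. The median depth-scaled ratio, crol-KO over WT, was 1.08 (1.07 to 1.08) over the 7604 Crol pairs and 1.06 (1.06 to 1.07) over the 7443 Cg pairs, so the centres of both distributions were alike. The Crol ratios had a long lower tail: the value below which 5% of pairs fell was 0.553 for Crol and 0.748 for Cg, while the value exceeded by 5% was 1.56 and 1.47. A ratio under 0.5 was found in 3.30% of Crol pairs (251 of 7604, 2.91 to 3.73) and a ratio over 2 in 0.500% (38 of 7604, 0.354 to 0.685). For Cg the shares were 0.148% (11 of 7443) and 0.202% (15 of 7443). Pairs with a ratio under 0.5 are called reduced. At a fold of 2.5 the Crol counts were 86 lower and 5 higher in crol-KO, and at a fold of 3 they were 33 and 0. At a fold of 1.5 they were 750 lower and 523 higher for Crol, and 135 lower and 289 higher for Cg.

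**Figure D3:**
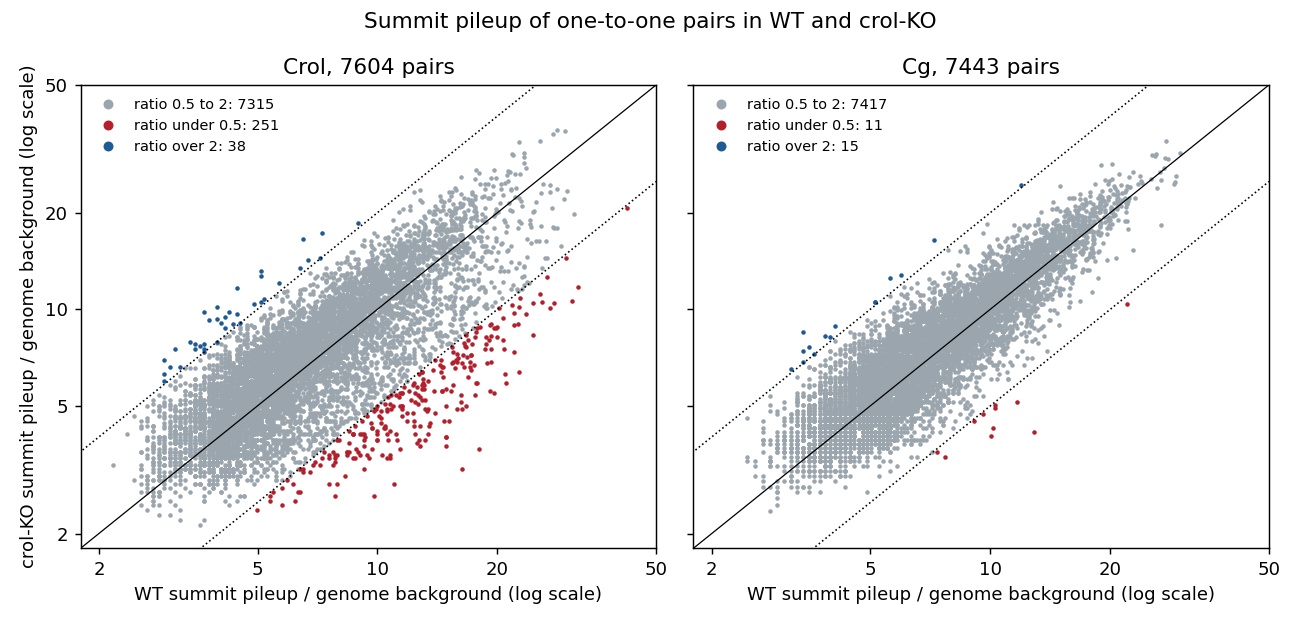
Summit pileup of one-to-one pairs in WT (horizontal) and crol-KO (vertical), each divided by the genome-wide background of its list, on log axes, for Crol and Cg; the solid line marks equal values and the dotted lines a ratio of 0.5 and 2. The Crol panel has 251 pairs below the lower line (red) and 38 above the upper line (blue), and the Cg panel 11 and 15.

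The direction of this asymmetry depends on the scaling. When the scale was set so that the summed pileup of the pairs with the highest 10% of WT fold enrichment was equal, 1.51% of Crol pairs were under 0.5 and 2.52% over 2. That setting picks pairs for being high in WT only. When the pairs were picked by the mean pileup of both genotypes the shares were 3.37% and 0.460%, and with the median ratio of all pairs set to 1 they were 4.47% and 0.250%, both settings chosen after the data were seen. By deciles of mean pileup, reduced pairs made up 0.785% of the lowest decile and between 4.06% and 5.53% of each of the 5 highest, while the median ratio in those 5 lay between 1.08 and 1.10.

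Sorted by WT pileup, which is also the denominator of the ratio, reduced pairs were most frequent among the strongest WT peaks. By decile of pileup over the whole WT Crol list, 0 of 1014 peaks in each of the 3 lowest were in a reduced pair. A peak near the detection limit that loses reads leaves the list and counts as missing. The lowest pileup of a crol-KO peak was 26 reads, and WT peaks of the 2 lowest deciles had at most 43. A ratio under 0.5 was therefore impossible in those 2 deciles, so their 0 carries no information. In the decile above, it needed a crol-KO peak near that lowest pileup. In the highest decile, with 129 to 448 reads, 138 of 1014 (13.6%, 11.6 to 15.9) were reduced and 16 (1.58%) were missing, together 15.2% (13.0 to 17.5). In the highest decile of WT Cg peaks 2 of 894 were reduced and 5 missing, together 0.783% (0.315 to 1.61). In the opposite direction, 9 of the 989 crol-KO Crol peaks with the highest pileup (0.910%, 0.417 to 1.72) were either new or more than doubled. In these lists, the share of the strongest sites that were missing or reduced was thus higher for Crol from WT to crol-KO than for Cg. It was also higher than the share new or more than doubled in the reverse direction. The intervals did not overlap, but they cover counting error only, and the spread between libraries is not known. With the scale set on the pairs highest in WT fold enrichment, as above, the Crol shares were 9.17% (7.47 to 11.1) from WT to crol-KO and 4.04% (2.90 to 5.47) in the reverse direction, while Cg was not run under that scale, which was applied to these shares after the data were seen.

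**Figure D4:**
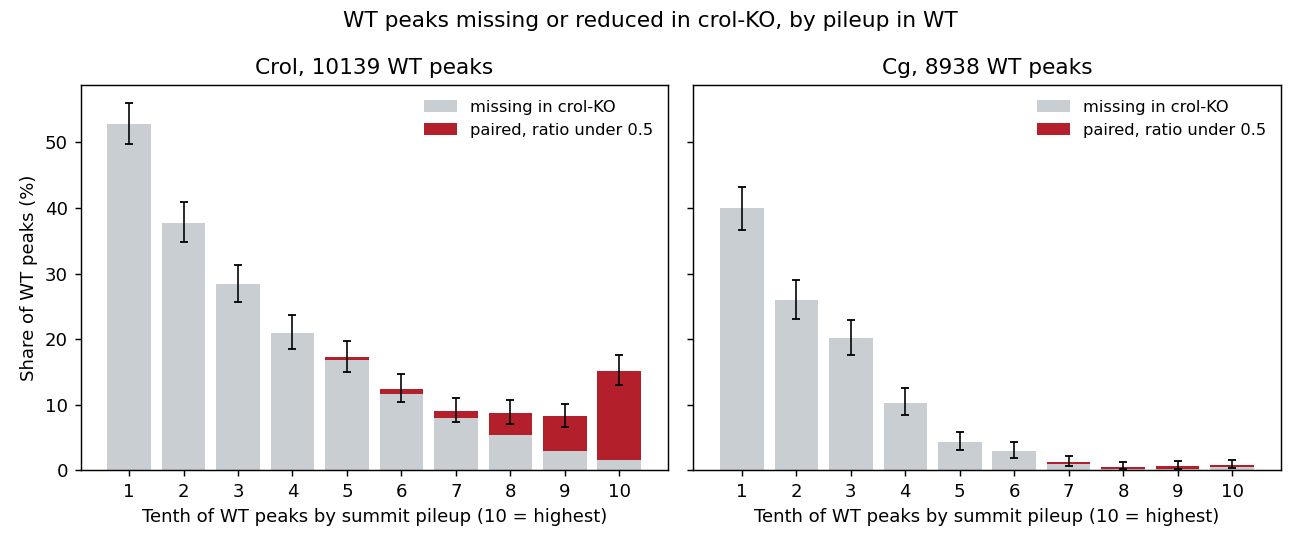
Share of WT peaks of Crol and Cg that were missing in crol-KO (grey) or in a one-to-one pair with a depth-scaled ratio under 0.5 (red), in %, by decile of WT pileup; error bars are 95% exact intervals of the sum. Missing peaks become rarer with pileup for both proteins, and reduced peaks reach 13.6% in the highest decile of Crol and 0.224% in that of Cg. The WT pileup used for sorting is also the denominator of the ratio.

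Within the strongest decile, the reduced Crol sites did not differ much in size from the rest. Their median WT width was 894.5 bp and their median WT pileup 173 reads, against 887 bp and 160 reads for the 765 other one-to-one pairs. They differed in Cg. The Cg peak at the site had a median pileup of 70 reads (65 to 75) in WT at reduced sites and of 113 reads (110 to 118) at the others. The same was seen in the decile below, with 46.5 (44 to 50) against 91.5 reads (89 to 94), and in the one below that, with 46 (42 to 49) against 76 (75 to 79). The medians at reduced sites in these lower deciles rest on 48 and 31 sites with a WT Cg peak. Reduced sites there were also wider, at 755.5 against 724 bp and at 791.5 against 637 bp. In all 3 deciles the sites where Crol was reduced in crol-KO thus carried less Cg in WT than other sites of like Crol pileup. Since the reads of Cg and Crol in WT come from separate precipitations, this measure was not used in choosing the sites, but the site choice does use the WT Crol pileup.

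Cg at the same sites was also lower in crol-KO. A WT Cg peak overlapped 92.8% (88.9 to 95.7) of the 251 reduced pairs and a crol-KO Cg peak overlapped 75.3% (69.5 to 80.5), whereas the shares at the 7315 pairs with a ratio of 0.5 to 2 were 87.3% and 90.7%. Where Cg itself formed a one-to-one pair, its depth-scaled ratio had a median of 0.811 (0.789 to 0.857) at 172 reduced sites, 1.07 (1.06 to 1.08) at 5853 of the other pairs and 1.46 (1.38 to 1.57) at 30 of those with a Crol ratio over 2. Only 2 of the 172 had a Cg ratio under 0.5. The series has 1 set of input libraries per genotype for these tissues, but the labels do not say which libraries it served. If Crol and Cg were called against the same input, their peak calls are not independent. The pileup itself contains no input reads.

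Reduced pairs had shares with overlapping intervals on all arms, except between 2L and 2R. They made up 4.18% of the pairs on 2R (61), 3.67% on 3L (59), 3.63% on 3R (65), 2.99% on X (40), 1.95% on 2L (26) and 0 of 78 on 4. The interval was 3.21 to 5.33 on 2R and 1.28 to 2.85 on 2L, and the 0 on 4 allows a share of up to 4.62%. The 2L share was the lowest of the large arms. The median ratio was higher on X, at 1.12 (1.10 to 1.13), and on 4, at 1.20 (1.14 to 1.29), than on the other arms, where it lay between 1.05 and 1.08. The Cg ratio was also highest on X and 4, at 1.13 on both, against 1.04 to 1.06, and the local background ratio was higher on X than on the other arms too, at 0.996 against 0.918 to 0.960 for Crol. What raised the values on X in both proteins was not tested. Reduced pairs were narrower in crol-KO, with a median width difference of -238 bp (-264 to -209), and their summits lay a median of 66 bp apart, against 38 bp for pairs with a ratio of 0.5 to 2.

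The lowest ratio above the median WT fold enrichment was on 2R. The WT peak from 14217018 to 14218474 was 1457 bp wide with 173 reads, and the crol-KO list kept only a 329 bp peak with 39 reads at its edge, whose summit lay 871 bp from that of WT. The depth-scaled ratio was 0.196 (0.135 to 0.278). The next, on 2R from 20572371 to 20573089, went from 191 to 45 reads, a ratio of 0.204 (0.144 to 0.284), with summits 197 bp apart. Both overlapped a Cg peak in WT and none in crol-KO. The last of the 3, on 3L from 14626921 to 14628889, went from 158 to 46 reads, a ratio of 0.253 (0.178 to 0.353), and had no Cg peak in either genotype. At the opposite end were a 2R peak from 6786489 to 6786906 with 69 reads in WT and 203 in crol-KO, a ratio of 2.55 (1.93 to 3.40), and a 2L peak from 13362951 to 13363410 with 77 and 211 reads, a ratio of 2.38 (1.82 to 3.13). A 3L peak from 4380158 to 4380744 followed with 60 and 148 reads, a ratio of 2.14 (1.58 to 2.94). The 2R and 3L sites had Cg peaks in both genotypes, with Cg ratios of 1.88 and 1.77, and the 2L site had none. All 3 low sites would count as kept by overlap alone.

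The strongest unmatched peaks were stronger in WT than in crol-KO. The 10 missing WT peaks with the highest fold enrichment had 83 to 230 reads and ranked between 60 and 628 in their list, while the 10 strongest new crol-KO peaks had 66 to 154 reads and ranked between 957 and 2312. The strongest missing peak, on 3L from 3536722 to 3537429, had 215 reads over a local background of 20.6, and the nearest crol-KO summit lay 5444 bp away. A 2R peak from 14416045 to 14416783 had the most reads, 230, with the nearest crol-KO summit at 3321 bp. Others were on X at 8554354 to 8555614 (83 reads), on 2L at 13182356 to 13182851 (137 reads), on 3R at 15154217 to 15155141 (134 reads) and on 3R at 4794735 to 4795835 (137 reads). At the last of these the nearest crol-KO summit was 10465 bp away. The remaining ones were on 3L from 2835503 to 2836251 with 156 reads, on 2L from 18664601 to 18665655 with 148, on 2R from 7488706 to 7490194 with 188 and on 3L from 6839760 to 6841191 with 109. For the last 3 of these the nearest crol-KO summit was within 1153 to 1591 bp. A WT Cg peak overlapped all 10 sites and a crol-KO Cg peak 4 of them. Among pairs with a ratio of 0.5 to 2 the shares were 87.3% and 90.7%.

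Among the 10 new crol-KO peaks the first was on 2R from 7021770 to 7022264, with 130 reads and the nearest WT summit 15588 bp away. At the others that distance lay between 1168 and 5595 bp. They included a 2R peak from 6430595 to 6431226 with 154 reads, 3L peaks from 5145417 to 5146017 with 133 and from 5126886 to 5127514 with 98, and a 3R peak from 2935313 to 2936160 with 128. The remaining 5 had 66 to 93 reads. All 10 overlapped a crol-KO Cg peak and 7 of them a WT Cg peak, against 90.7% and 87.3% of pairs with a ratio of 0.5 to 2.

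Missing and new peaks were spread over all arms. The missing share was 16.9% on 3R, 18.6% on X, 19.3% on 2L, 19.4% on 3L and 19.9% on 2R, with overlapping intervals between neighbours in this order. On the small chromosome 4 it was 4.60% (4 of 87, 1.27 to 11.4). The new share lay between 15.8% on 2R and 18.8% on X for the large arms, and was 21.6% (22 of 102, 14.0 to 30.8) on 4. Chromosome 4 thus had fewer missing than new peaks, and for Cg it had 2 missing of 82 and 22 new of 101.

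In bins of 500 kb, counted from the start of each arm and placed by peak summits, missing WT peaks were more uneven than new crol-KO peaks. Of the 224 bins with at least 20 WT peaks, 15 or 6.70% had a share of missing peaks whose interval lay above the share over all arms, and 11 had an interval below it. For new peaks 5 of 226 bins, 2.21%, lay above and 4 below. With 95% intervals some bins fall on either side by counting error alone, even where all bins have the same rate. How many would do so was not computed. The bins high in new peaks, named below, are therefore not shown to differ from the rest. The bin shares had quartiles of 12.9% and 22.9% for missing peaks and of 13.3% and 22.4% for new peaks. The bulk of the bins was thus alike, and the difference lay in the outer bins at both ends. The 15 bins held 268 of the 1889 missing peaks, with 5 bins on 2L, 3 each on X, 3L and 3R, 1 on 2R and 0 on 4. None of the 15 was also high in new peaks. For Cg, 4 of 222 bins were high in missing and 8 of 224 in new peaks. Of the bins high in missing peaks 2 were shared by Crol and Cg, and of those high in new peaks 0.

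**Figure D5:**
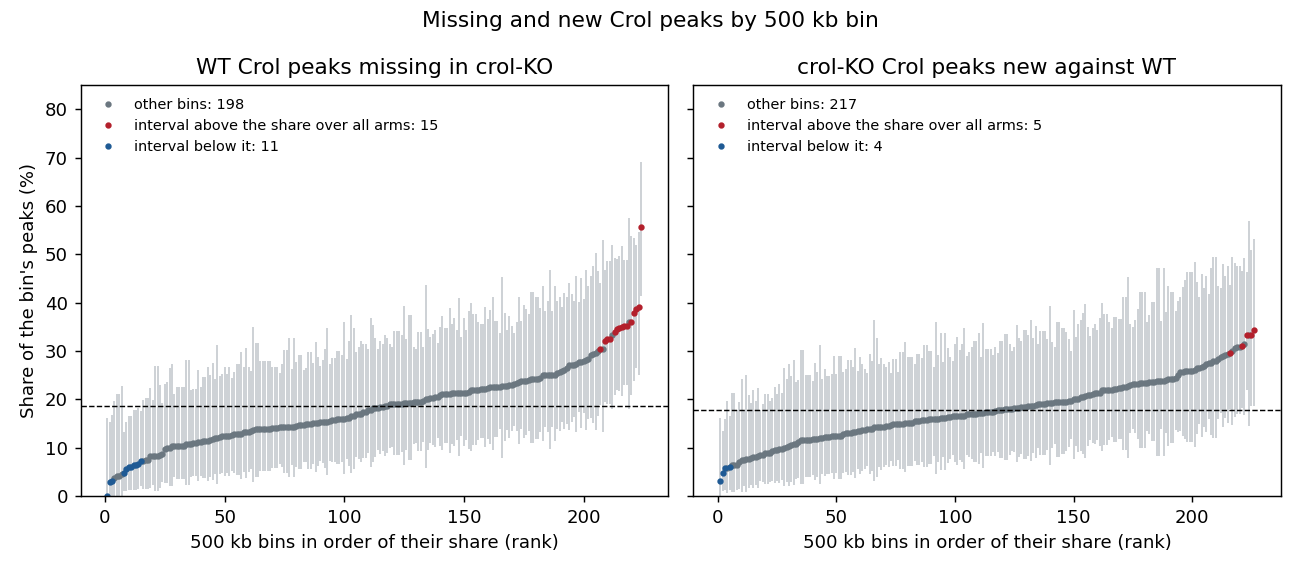
Share of missing WT Crol peaks (left, 224 bins) and of new crol-KO Crol peaks (right, 226 bins) in 500 kb bins with at least 20 peaks, in %, in order of the share; vertical lines are 95% exact intervals and the dashed line is the share over all arms. On the left 15 bins lie above the dashed line with their whole interval, and 1 bin stands out at 55.6%; on the right 5 bins do and the highest is at 34.4%.

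The bin with the highest missing share was on 3L between 22 and 22.5 Mb, where 30 of 54 WT peaks (55.6%, 41.4 to 69.1) had no crol-KO overlap. The crol-KO list had 26 peaks there, of which 2 were new, against 30 missing ones. In the Cg lists 6 of 26 WT peaks (23.1%) were missing in the same bin, where the Cg share over all arms was 10.6%. The next were on 3R between 15 and 15.5 Mb with 18 of 46 (39.1%), on 3R between 0.5 and 1 Mb with 24 of 62 (38.7%), on X between 18.5 and 19 Mb with 17 of 45 (37.8%) and on 2L between 13.5 and 14 Mb with 13 of 36 (36.1%). The missing shares of Cg in these next 4 bins were 13.8% (4 of 29), 24.3% (9 of 37), 23.3% (7 of 30) and 8.70% (2 of 23). In the 5 bins together only 4 pairs were reduced, all of them in the second 3R bin. The bins with the highest new shares were on 3R between 18.5 and 19 Mb with 11 of 32 (34.4%, 18.6 to 53.2), on 2L between 10 and 10.5 Mb with 21 of 63 (33.3%), on X between 14.5 and 15 Mb with 12 of 36, on 2L between 15.5 and 16 Mb with 7 of 21 and on 3L between 6 and 6.5 Mb with 11 of 35 (31.4%). Of these 5 only the 3R, the first 2L and the X bin had an interval above the share over all arms, and the other bins that did were on 2R between 12.5 and 13 Mb with 14 of 45 (31.1%) and on 3R between 11 and 11.5 Mb with 16 of 54 (29.6%), chosen after their values were seen. The 3L bin had a missing share of 29.4% as well, while in the first 3R bin of this list only 1 of 22 WT peaks was missing.

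Missing peaks also followed one another along the arm. A run is a series of neighbouring peaks of one list that all lack an overlap, with no matched peak of that list between them. Of the missing WT peaks 50.5% stood alone and 26.1% were in runs of at least 3, while of the new crol-KO peaks 62.4% stood alone and 11.2% were in such runs, although both classes made up nearly the same share of their list. Runs of 5 or more numbered 19 with 111 peaks among missing WT peaks and 2 with 10 peaks among new ones. For Cg, 8.80% of missing and 10.6% of new peaks were in runs of at least 3, at lower overall shares of 10.6% and 15.6%.

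The longest run of missing peaks had 10 WT peaks on 3L from 22129832 to 22171984, a span of 42.2 kb within the highest bin. These peaks were weak, with 40 to 58 reads and fold enrichments of 1.97 to 2.88, and WT peaks with an overlap began 0.325 kb before and 0.289 kb after the run. The crol-KO list had 0 Crol peaks in the span, and Cg had 2 peaks in each genotype. The second was the run of 9 WT peaks on X from 18150077 to 18186864, with 30 to 68 reads. The next had 8 WT peaks on 2L from 14122854 to 14152382, a span of 29.5 kb, with 25 to 41 reads, 3 WT Cg peaks and 1 crol-KO Cg peak. The longest runs of new peaks had 5 crol-KO peaks each, on 2L from 7096479 to 7157818 with 34 to 47 reads and on X from 8956946 to 8980121 with 35 to 62, and 4 on 2R from 20986993 to 21002138 with 41 to 61.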

How the data were processed

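ChIP-seq libraries were prepared from brains and imaginal discs, and per the labels and the study's methods the authors trimmed reads with Trim Galore 0.6.5, aligned them to dm3 with Bowtie2 2.3.5, removed duplicates with SAMtools 1.13, pooled the replicates and called narrow peaks with MACS2 2.2.5 at a q-value of 0.05, with reads extended to 300 bp and no fragment model. The control used for calling is not given in the sources used here. The deposited lists give peak ends and summits, and 4 columns by the authors: a score (10 times the −log10 q, cut), the fold enrichment (a ratio of summit pileup to local background), the −log10 p-value at the summit and its −log10 q-value. Samples were grouped by their titles.

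Pileup and background were solved from the fold enrichment, (pileup + 1) over (background + 1), and the Poisson p-value. The whole-number pileups show that the ChIP reads were not rescaled. The lowest background gave the reads, for the 120 Mb genome of the preset. Fold enrichments were used only within a list, to rank peaks. Analyses ran in Python 3.11.15 with pandas, numpy and scipy, and the functions were tested on simulated data. Peaks numbered but skipped in the lists (332 in WT, 335 in crol-KO) were left out, as were the libraries outside the Crol and Cg groups compared here, except that the Crol peaks of S2 cells were counted for the total. Those left out include an earlier WT set of these tissues with CrolN and one with CrolC, another Crol antibody. Peaks on heterochromatic sequences entered only an alternative setting and a count.

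Named sites were the 5 largest summit distances, the 3 largest width gains and losses, the 3 peaks most split and the 3 covering most WT peaks, the 3 lowest and 3 highest ratios above the median WT fold enrichment, the 10 strongest unmatched peaks of each list, the 5 highest bins and the 3 longest runs in each direction. Members, rules and settings were chosen with earlier results of these data known. Comparisons of reduced pairs and of Cg at them were added after seeing the data. No dm3 annotation or genome was used here, so sites are given by position, without gene names or sequence.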

Additional observations from a re-analysis of the deposited data

Results flagged for a closer look

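Signal lay outside the main comparison, on the heterochromatic sequences of dm3, above the 3 counts that a count of 0 allows. The WT Crol list had 39 peaks there and the crol-KO Crol list 46. Without an overlap in the opposite genotype were 1 of the WT peaks, or 2.56% (95% interval 0.0649 to 13.5), and 8 of the crol-KO peaks, or 17.4% (7.82 to 31.4). These sequences are repetitive, and how reads were placed in them was not tested.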

How the results depend on the processing

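Of 78 alternative values for 15 results, 54 stayed within the counting interval or within 1.5 times the main value, 23 moved and 1 reversed. The reversal was in the share of pairs under 0.5 minus the share over 2, which was 2.80 percentage points and became -1.01 when the scale was set on the pairs with the highest 10% of WT fold enrichment. With an overlap of at least 50% of both peaks the missing share was 27.5%, the new share 25.6%, the reduced share 2.78%, and splits and fusions were 0 by construction. With a −log10 q of at least 5 the new share was 18.9%. Counting a peak within 1000 bp as overlapping gave a missing share of 14.0%, a new share of 13.0% and 8 bins high in new peaks. Bins of 1 Mb gave 7 bins high in missing and 3 high in new peaks. Pairs by nearest summits gave a median summit distance of 36 bp, a width difference of 44 bp and 64.8% wider pairs. Scaling by those strongest pairs gave a median ratio of 1.28, 1.51% of pairs under 0.5 and 2.52% over 2, with 9.17% of the strongest WT decile missing or reduced and 4.04% of the strongest crol-KO decile new or raised. Scaling by the median ratio gave 4.47% and 0.250%, a difference of 4.22 points, and 17.9% of the strongest WT decile. The cause was not tested. The settings for these shares were chosen after seeing the data, as was the next. Scaling the pileup and background of called crol-KO peaks down to the WT depth dropped 8 peaks, those under the lowest WT −log10 p-value. The missing and new shares stayed within their intervals and both bin counts were the same. Peaks were not called again, so their ends could not change, and the effect of depth on calling was not tested. This setting was run for these 4 results only.

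Leaving out a replicate was not possible, since the lists were called on pooled reads. No paired analysis was possible because each group has 1 list of pooled replicates. Depth limits weak sites: a peak near the lowest WT pileup of 23 reads leaves the list when it falls, so reduced pairs can be seen only among stronger sites.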
